A study of Mus musculus with 20 samples.

Results

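H3K27ac, an acetylation of histone H3, was compared between fasted livers of Cpt2 knockout (Cpt2 KO) and Ppara knockout (Ppara KO) mice, 2 livers of each genotype, which are 4 of the 20 samples of the series. For each interval of the authors' H3K27ac consensus table, the fold of the highest overlapping peak of a library was taken as its value. This fold is the authors' ratio of ChIP signal at a peak over its local background. Of the 65776 intervals, 49496 were called in at least 1 of the 4 livers and 22784 in all 4. Differences were tested at these 22784, on log2 folds centred on the library median. Intervals called in both livers of a genotype and in neither of the other were counted beside them.

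Chromatin immunoprecipitation and sequencing (ChIP-seq) was done in 4 genotypes. The wild-type (WT) and double-knockout (DKO) livers, 2 each, entered the test only in its estimate of the spread. Otherwise they are given as reference. All mice were C57BL/6 males of 9 weeks that had fasted for 24 h. The Cpt2 KO mice (Cpt2 L-/-) lacked Cpt2 in the liver and kept Ppara, and the Ppara KO mice (Ppara -/-) lacked Ppara and kept Cpt2. The DKO carried both deletions, and its label calls the loss of Ppara whole-body. The promoter that drives the liver deletion and the exons deleted are not given in the sources used here. Whole liver was used, so fewer cells of a type and a lower level per cell cannot be told apart. The labels do not say how the livers of a genotype are related, and p-values measure the spread between these samples.

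H3K27ac is laid down by the acetyltransferases Crebbp and Ep300 and marks active enhancers and promoters. PPARA is a nuclear receptor that binds fatty acids, pairs with a retinoid X receptor and, in the fasted liver, activates genes of fatty acid uptake, peroxisomal, microsomal and mitochondrial oxidation and ketone body synthesis. CPT2 sits in the inner mitochondrial membrane and rebuilds long-chain acyl-CoA from acylcarnitine, a step that long-chain fatty acids need before their oxidation. The comparison therefore sets livers that have the receptor and lack the oxidation step beside livers that have the enzyme and lack the receptor.

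The sequences just before the start sites show what lies under a few of the changed intervals. Among the genes named by rule, Mfsd2a, Acaa1b and Gldc had the largest differences at called intervals that cover the annotated start of the gene. Mogat1 is the only one of the 8 strongest intervals called in Cpt2 KO alone that covers a start, and Fabp1 was added after its values were seen because its window holds the receptor's element. The 250 bases before the start are from RefSeq (GRCm38.p6, the assembly of mm10), 5′ to 3′ on the gene's strand. Capitals mark AGGNCA followed by a spacer of a single base and AGGNCA again (DR1, the direct repeat that PPARA and its partner bind), or AGGTCA alone, on either strand.
Fabp1 (chr6:71199629-71199878, + strand): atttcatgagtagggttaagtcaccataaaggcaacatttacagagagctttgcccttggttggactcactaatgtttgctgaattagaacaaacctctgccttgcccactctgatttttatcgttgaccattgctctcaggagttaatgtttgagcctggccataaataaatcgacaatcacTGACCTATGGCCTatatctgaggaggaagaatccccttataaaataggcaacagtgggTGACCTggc
Mfsd2a (chr4:122961189-122961438, - strand): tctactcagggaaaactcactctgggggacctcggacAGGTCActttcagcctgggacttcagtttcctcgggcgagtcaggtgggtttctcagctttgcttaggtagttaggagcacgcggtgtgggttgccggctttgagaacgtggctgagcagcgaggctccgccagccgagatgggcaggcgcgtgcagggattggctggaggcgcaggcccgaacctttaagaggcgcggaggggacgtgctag
Acaa1b (chr9:119157094-119157343, - strand): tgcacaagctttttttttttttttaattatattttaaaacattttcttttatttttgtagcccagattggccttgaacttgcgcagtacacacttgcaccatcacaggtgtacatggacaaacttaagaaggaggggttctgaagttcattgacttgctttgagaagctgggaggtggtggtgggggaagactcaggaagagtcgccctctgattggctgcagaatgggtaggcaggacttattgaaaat
Mogat1 (chr1:78510810-78511059, + strand): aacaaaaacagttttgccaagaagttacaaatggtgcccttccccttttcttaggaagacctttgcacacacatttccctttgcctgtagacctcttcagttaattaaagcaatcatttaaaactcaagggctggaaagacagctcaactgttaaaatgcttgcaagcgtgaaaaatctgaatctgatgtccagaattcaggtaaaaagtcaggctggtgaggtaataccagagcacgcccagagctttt
Gldc (chr19:30175442-30175691, - strand): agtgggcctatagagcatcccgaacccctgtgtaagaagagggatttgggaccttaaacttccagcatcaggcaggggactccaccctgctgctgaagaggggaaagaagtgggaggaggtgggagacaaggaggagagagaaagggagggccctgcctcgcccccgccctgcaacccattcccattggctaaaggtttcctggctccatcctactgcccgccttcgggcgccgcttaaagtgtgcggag
In Fabp1 the repeat lies on the minus strand with its first base at -67 from the start, and a lone AGGTCA lies at -9. Mfsd2a has AGGTCA at -213, and the letters of neither motif are in the windows printed for Acaa1b, Mogat1 and Gldc. Over all 21262 promoter windows of protein-coding genes, which run from 250 bases before to 50 after the start, 75 (0.353%) hold the repeat and 14.7% hold AGGTCA. The repeat is in 1 of the 70 windows under intervals higher in Cpt2 KO and in 0 of the 47 under lower ones. AGGTCA is in 17.1% and 21.3% of them. Under intervals called in Cpt2 KO only, 0 of 384 windows hold the repeat and 12.5% hold AGGTCA. Under those called in Ppara KO only, it is 0 of 54 and 27.8%. Of the 8605 windows under all tested intervals, 0.314% hold the repeat and 12.7% hold AGGTCA. The differences between these shares were not tested. Most changed intervals covered no start site, as given below, and their own sequence was not analysed here.

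Peak lists held 46445 and 47361 peaks in Cpt2 KO and 46543 and 44454 in Ppara KO, over 42.1 to 47.4 Mb. Median fold was 8.02 and 7.42 in Cpt2 KO and 6.75 and 7.17 in Ppara KO. Depth in reads is unknown. Shared bases as a part of all bases covered by a pair of lists (Jaccard index) came to 0.726 within Cpt2 KO and 0.723 within Ppara KO, and 0.571 to 0.616 between them. The smallest peak of a list was 221 and 220 bases wide in Cpt2 KO and 205 and 210 in Ppara KO. This width and the genotype therefore cannot be told apart in these 4 livers. It was 217 and 223 bases in DKO and 206 and 198 in WT. Loss of Cpt2 and a wider smallest peak thus go together in all 8 H3K27ac libraries and cannot be told apart there either. The animal numbers, taken from the names of the peaks, also fell into separate series for Cpt2 KO and Ppara KO. WT livers (9548 and 9587) lay in the series of Cpt2 KO (9588 and 9589). DKO livers (6843 and 6848) lay in that of Ppara KO (6833 and 6834). Loss of Ppara and the animal series therefore cannot be told apart in these livers. Of the 10 hepatocyte markers looked up, 9 had an interval called in all 4 livers, among them Alb, Apob, Ttr, Hnf4a and Cps1, with folds from 8.21 to 37.3, and none of the 9 passed the test.

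H3K27ac was higher in Cpt2 KO than in Ppara KO at 246 of the 22784 intervals tested (1.08%) and lower at 297 (1.3%), together 2.38%. The call was a Benjamini-Hochberg adjusted p under 0.05 in limma, and 3811 intervals had an unadjusted p under 0.05. Log2 differences of the higher intervals ran from 0.52 to 2.41 with a median of 1.31, and those of the lower ones from -0.67 to -2.77 with a median of -1.24. For comparison, the 2 livers of a genotype differed at the median interval by 0.22 in Cpt2 KO and 0.25 in Ppara KO. Folds of the 2 genotypes did not overlap at 5919 intervals higher in Cpt2 KO (26%) and 5724 lower in it (25.1%). Scaling moved this split. Uncentred folds put the median interval 0.24 higher in Cpt2 KO on the log2 scale, with 518 intervals higher and 100 lower. Every difference below is relative to that shift.

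The calls rested on all 4 livers. Without Cpt2 KO replicate 1 or 2 there were 147 and 87 calls, and without Ppara KO replicate 1 or 2 there were 99 and 42. In each of these fits 1 liver stands alone and is assumed to vary like the other groups. Of the 246 higher intervals 17 passed in all 4 of these fits, and of the 297 lower ones 11 did. All 543 kept their direction. With smallest peak width as a covariate no interval passed, and 1004 higher and 1217 lower intervals had an unadjusted p under 0.05.

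**Figure D1:**
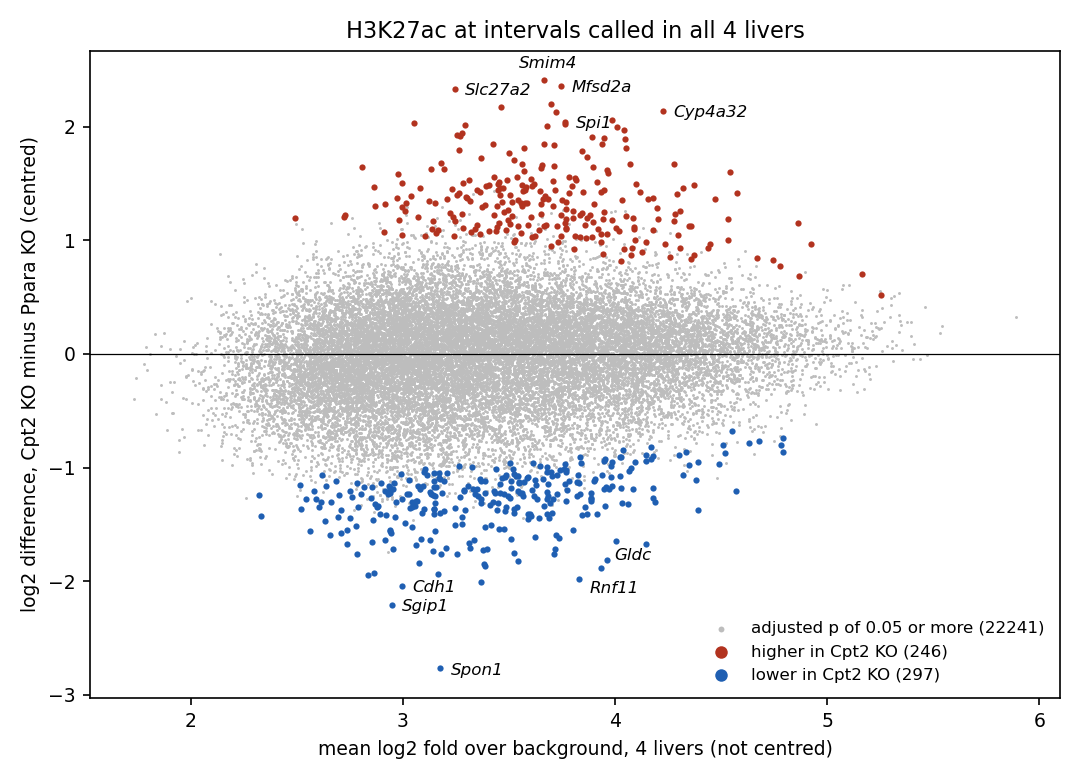
Log2 difference in H3K27ac (Cpt2 KO minus Ppara KO, centred) against mean log2 fold over background in the 4 livers, one point per interval called in all 4. The 246 higher intervals (red) and 297 lower ones (blue) lie on both sides of the 22241 others (grey), from -2.77 at Spon1 to 2.41 at Smim4.

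The 12 genes of largest difference in favour of Cpt2 KO were Smim4, Mfsd2a, Slc27a2, Nudt9, Mtfr1, Cyp4a32, Ssh2, Myo5b, Spi1, Arid5b, Baz2b and Synpo. Inside Smim4, which encodes a small mitochondrial protein, the fold was 37.5 and 26.8 in the Cpt2 KO livers and 5.72 and 4.48 in the Ppara KO livers. Both Cpt2 KO livers were well above both Ppara KO livers (log2 difference 2.41, SE 0.26, limma adjusted p = 0.0017). Next to Slc27a2, a very-long-chain acyl-CoA synthetase and fatty acid transporter, an interval 7556 bases from the gene (chr2:126543642-126547294) had folds of 20.3 and 26.3 against 3.23 and 4.67 (2.34, SE 0.33, limma adjusted p = 0.0026). The interval over the start of Mfsd2a, a transporter of lysophospholipids, had folds of 30.3 and 35.9 in Cpt2 KO and of 8.42 and 3.52 in Ppara KO. Its Ppara KO livers lay apart from each other, and the difference of 2.36 had the widest error of the 12 genes named here (SE 0.48, limma adjusted p = 0.020).

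Inside Mtfr1, a regulator of mitochondrial fission, the folds were 29.1 and 22.2 against 6.16 and 3.70 (2.17, SE 0.30). Nudt9, an ADP-ribose hydrolase of mitochondria, had an interval 9783.5 bases away with folds of 32.7 and 27.8 against 6.31 and 4.94 (2.20, SE 0.36). An interval inside Spi1, a transcription factor of macrophages, had folds of 31.2 and 28.8 against 7.60 and 5 (2.05, SE 0.34). Arid5b, a chromatin protein with roles in fat metabolism, had 26.8 and 33.1 against 7.14 and 5.40 (2.02, SE 0.27). Differences from 2.0 to 2.14 were also found at Cyp4a32, Ssh2, Myo5b, Baz2b and Synpo. The groups did not overlap at any of these 12 genes, which follows from how they were named.

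Of the 12, Smim4, Slc27a2, Cyp4a32, Ssh2 and Myo5b passed with each of the 4 livers left out in turn. Without Ppara KO replicate 2 the limma adjusted p was 0.20 at Mfsd2a, 0.097 at Nudt9, 0.054 at Mtfr1, 0.11 at Spi1, 0.053 at Arid5b, 0.085 at Baz2b and 0.14 at Synpo. Without Cpt2 KO replicate 2 it was 0.13 at Mfsd2a, 0.051 at Nudt9, 0.062 at Spi1 and 0.13 at Synpo, and without Cpt2 KO replicate 1 it was 0.060 at Mfsd2a.

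**Figure D2:**
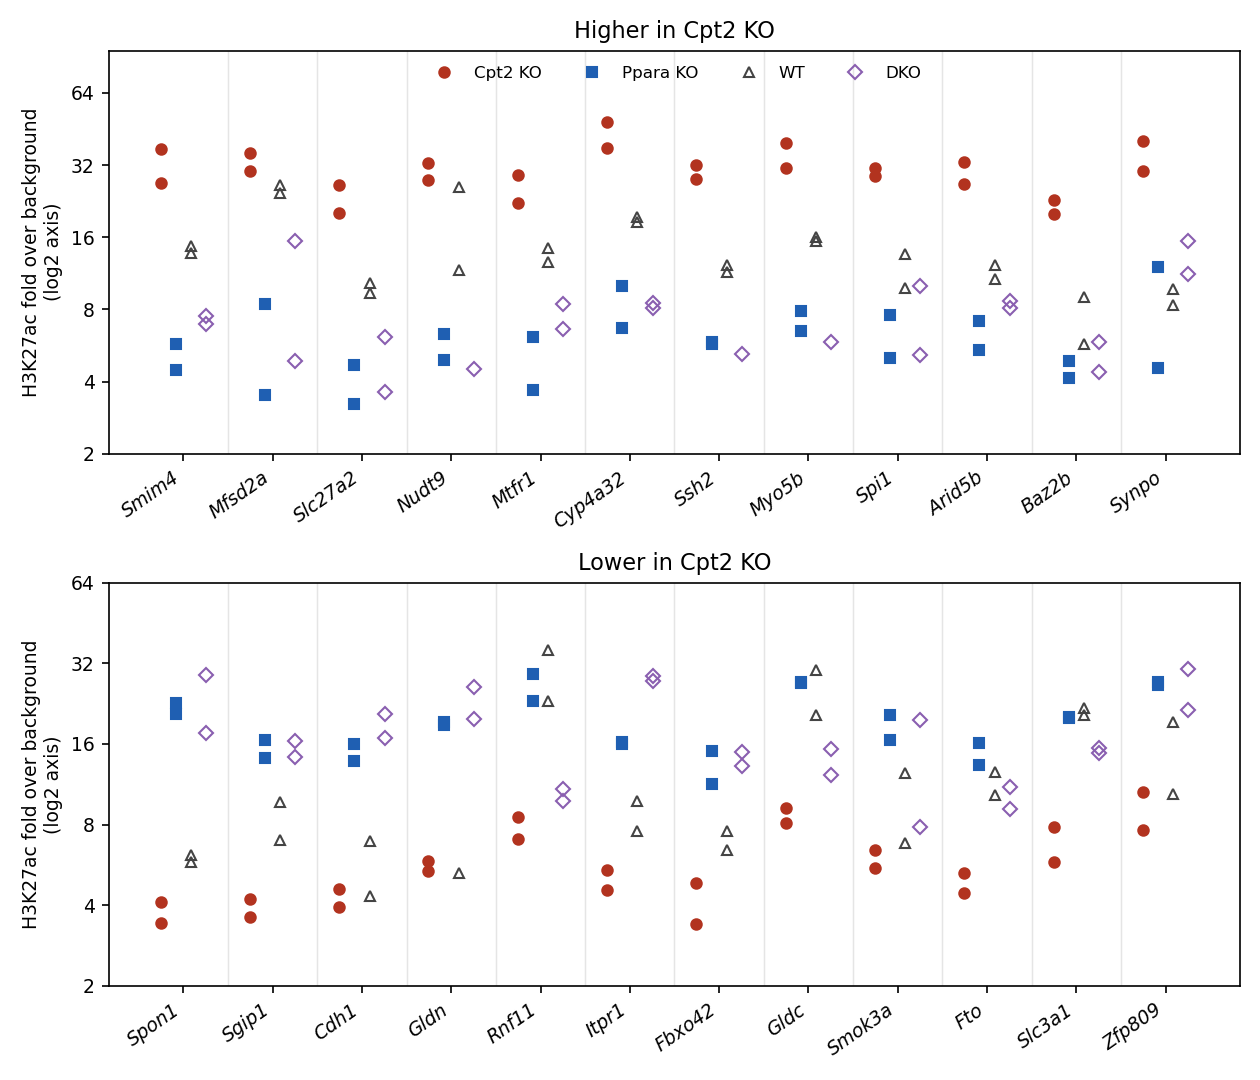
H3K27ac fold over background (log2 axis) in each liver at the 12 genes of largest difference in each direction, Cpt2 KO as red circles, Ppara KO as blue squares, WT as open triangles and DKO as open diamonds. In the upper panel the Cpt2 KO livers lie between 20.0 and 48.3 and the Ppara KO livers between 3.23 and 12.1; in the lower panel the order is reversed.

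Of the genes under PPARA control for omega and peroxisomal oxidation, 7 were higher in Cpt2 KO. Each gene of a list stands by its strongest interval within 10000 bases, and calls at its other intervals are given apart. Of the 31 genes of the list 26 had a called interval and 21 could be tested; 7 of the 21 were higher, 0 were lower and 14 did not pass, with a median log2 difference of 0.70. Over all 9586 genes tested this way, 1.17% were higher and 0.981% lower, with a median of 0.07. Groups did not overlap at 17 of the 21 genes with Cpt2 KO higher and at 1 with it lower, beside 32.1% and 18.6% of all genes. Over all 50 tested intervals of the list 11 were higher and 1 was lower. The lower one lay at Scp2, a sterol carrier of peroxisomes, with folds of 5.6 and 5.8 against 10.2 and 11 (-1.14, SE 0.26, limma adjusted p = 0.036). The list was chosen with results of these data known. The 4 genes of largest difference were Cyp4a32, Acaa1b, Cyp4a10 and Eci2.

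Near Cyp4a32, one of the microsomal omega-hydroxylases of fatty acids, the folds were 48.3 and 37.7 in Cpt2 KO and 10.0 and 6.69 in Ppara KO (log2 difference 2.14, SE 0.25, limma adjusted p = 0.0021). Across Acaa1b, a peroxisomal thiolase (chr9:119151863-119160654), they were 37.4 and 32 against 7.54 and 8.32 (1.89, SE 0.26). At Eci2, a peroxisomal enoyl-CoA isomerase, they were 29.1 and 28.7 against 6.57 and 7.71 (1.79, SE 0.25), and 2 further Eci2 intervals were also higher. None of these groups overlapped, and all 3 genes passed with any of the 4 livers left out. Hsd17b4, which carries out the middle steps of peroxisomal oxidation, had 46.3 and 42.1 against 10.8 and 14 (1.61, SE 0.21, limma adjusted p = 0.0021), and it too passed in all 4.

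Cyp4a10 had folds of 29.5 and 19.8 against 6.17 and 5.50 (1.81, SE 0.27), and its limma adjusted p was 0.064 without Ppara KO replicate 2. Abcd3, a transporter of the peroxisomal membrane, had the highest folds of the list in both genotypes, 51.0 and 48.2 against 25.2 and 26.6 (0.70, SE 0.14). Acaa1a had 32.2 and 27.6 against 13.3 and 15.0 (0.84, SE 0.21). With 1 of the 4 livers left out the limma adjusted p was 0.099 to 0.16 at Abcd3 and 0.19 to 0.24 at Acaa1a. With the mean fold of the peaks in place of the highest it was 0.066 and 0.056. The number of genes of the list that passed was then 5, 5 and 5 without Cpt2 KO replicates 1 and 2 and Ppara KO replicate 1, and 4 without Ppara KO replicate 2. The list's median stayed between 0.58 and 0.75.

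The other 14 genes tested did not pass at their strongest interval. Ehhadh, the bifunctional enzyme, had a difference of 0.20 (limma adjusted p = 0.72), and 2 other intervals of it were called in Cpt2 KO livers only. Across the list 29 of 135 called intervals (21.5%) were found in Cpt2 KO only and 1, inside Acsl1, in Ppara KO only. Over all 40106 called intervals near genes the shares were 8.29% and 4.8%. Cyp4a14 could not be tested because its main interval (chr4:115490936-115498991), with folds of 30.6 and 26.7 in Cpt2 KO, had no peak in either Ppara KO liver. It was called in WT with 9.25 and 11.6 and in DKO with 5.32 and 5.51. Within the Cyp4a cluster of chromosome 4, Cyp4a10, Cyp4a14 and Cyp4a31 had 3 such intervals each and Cyp4a32 had 2. These genes are near-identical copies, and how reads that fit several of them were placed is not given in the sources used here.

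In the list of mitochondrial fatty acid oxidation, of 24 genes tested out of 32, 7 were higher in Cpt2 KO and 0 lower, with a median of 0.57. The groups did not overlap at 19 genes with Cpt2 KO higher and 1 with it lower, beside 32.1% and 18.6% of all genes. The 7 higher genes were Slc25a20, Acot2, Acadvl, Decr1, Fabp1, Acads and Eci1. Slc25a20, the carrier that brings acylcarnitine into the matrix, had folds of 16.8 and 24.4 in Cpt2 KO and of 7.14 and 6.29 in Ppara KO (1.36, SE 0.28, limma adjusted p = 0.020). Acadvl, the very-long-chain acyl-CoA dehydrogenase, had 22.3 and 19.5 against 7.91 and 7.18 (1.23, SE 0.24, limma adjusted p = 0.016). Acot2, a mitochondrial acyl-CoA thioesterase, had 27.1 and 29.8 against 9.50 and 9.38 (1.35, SE 0.22, limma adjusted p = 0.0059).

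Decr1, which reduces intermediates of unsaturated fatty acids, had 29.3 and 26.5 against 9.05 and 11.8 (1.20, SE 0.22). Fabp1, the fatty acid-binding protein of the hepatocyte whose upstream bases are printed above, had 25.7 and 25.6 against 8.62 and 11.7 (1.11, SE 0.24, limma adjusted p = 0.024). WT livers had 15.7 and 17.4 and DKO livers 9.08 and 14.1 at the same Fabp1 interval. With the mean fold of the peaks Fabp1 had a limma adjusted p of 0.054. The calls of this list depended on single livers: 2 genes passed without Cpt2 KO replicate 1, 0 without replicate 2, 1 without Ppara KO replicate 1 and 0 without its replicate 2. The limma adjusted p lay at 0.094 to 0.18 for Fabp1, 0.061 to 0.13 for Acadvl, 0.066 to 0.11 for Decr1, 0.034 to 0.092 for Acot2 and 0.034 to 0.22 for Slc25a20. The list's median, in contrast, stayed between 0.57 and 0.60.

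Other genes of the list did not pass. At Cpt1a, which commits long-chain fatty acids to the mitochondrion, folds were 32.1 and 26.6 against 19.8 and 21 (0.28, SE 0.17, limma adjusted p = 0.44). Hadha, a subunit of the trifunctional protein, had a difference of 0.12 (0.79). Its partner Hadhb had no interval called in all 4 livers and 6 called in Cpt2 KO only. The strongest of the 6, at chr5:30163981-30167655 inside the gene, had folds of 20.1 and 23.2 in Cpt2 KO, 10.0 and 12 in WT and no peak in Ppara KO or DKO. Acadm went the other way at its strongest interval without passing, with 5.25 and 8.54 against 10.7 and 10.5 (-0.91, SE 0.30, limma adjusted p = 0.13). Of the list's 111 called intervals 26 (23.4%) were found in Cpt2 KO only and 1, beside Cpt2, in Ppara KO only. Near all genes the shares were 8.29% and 4.8%.

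Among the enzymes of ketone body synthesis and the switches of pyruvate use, 0 of 14 genes passed in either direction at their strongest interval, and the median was 0.05 beside 0.07 for all genes. Of 31 tested intervals 1 was higher, at Mpc1, a subunit of the mitochondrial pyruvate carrier, with folds of 14.8 and 15.3 against 5.43 and 4.67 (1.35, SE 0.26, limma adjusted p = 0.020). Of the 58 called intervals 9 (15.5%) were found in Cpt2 KO only and 4 (6.90%) in Ppara KO only, beside 8.29% and 4.8% near all genes. The difference between this list and the oxidation lists was not tested. Pdk4, the kinase that shuts down pyruvate dehydrogenase in fasting, had 23.6 and 20 against 11 and 13.2 (0.61, SE 0.24, limma adjusted p = 0.21), without overlap of the groups.

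Among genes of lipid droplets and fasting hepatokines 3 of 23 were higher, Mfsd2a, Cd36 and Fitm2, and 0 lower, with a median of 0.13, which was 0.0053 without Cpt2 KO replicate 1. At Cd36, a fatty acid receptor of the cell surface, folds were 19.9 and 16.8 against 7.43 and 4.50 (1.42, SE 0.30, limma adjusted p = 0.026), and 6 further intervals inside the gene were called in Cpt2 KO only. Fitm2, which partitions triglyceride into droplets, had 26.1 and 25.1 against 8.53 and 8.89 (1.32, SE 0.22, limma adjusted p = 0.0083). Without single livers the limma adjusted p of Fitm2 was 0.055 to 0.092 and that of Cd36 0.037 to 0.21, with the highest without Ppara KO replicate 2. Well-known fasting targets did not pass: Plin2 had a difference of -0.01 (0.98), Angptl4 one of 0.21 (0.64) and Fgf21 one of -0.78 (0.14), with Fgf21 folds of 8 and 5.70 against 8.50 and 11.4.

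**Figure D3:**
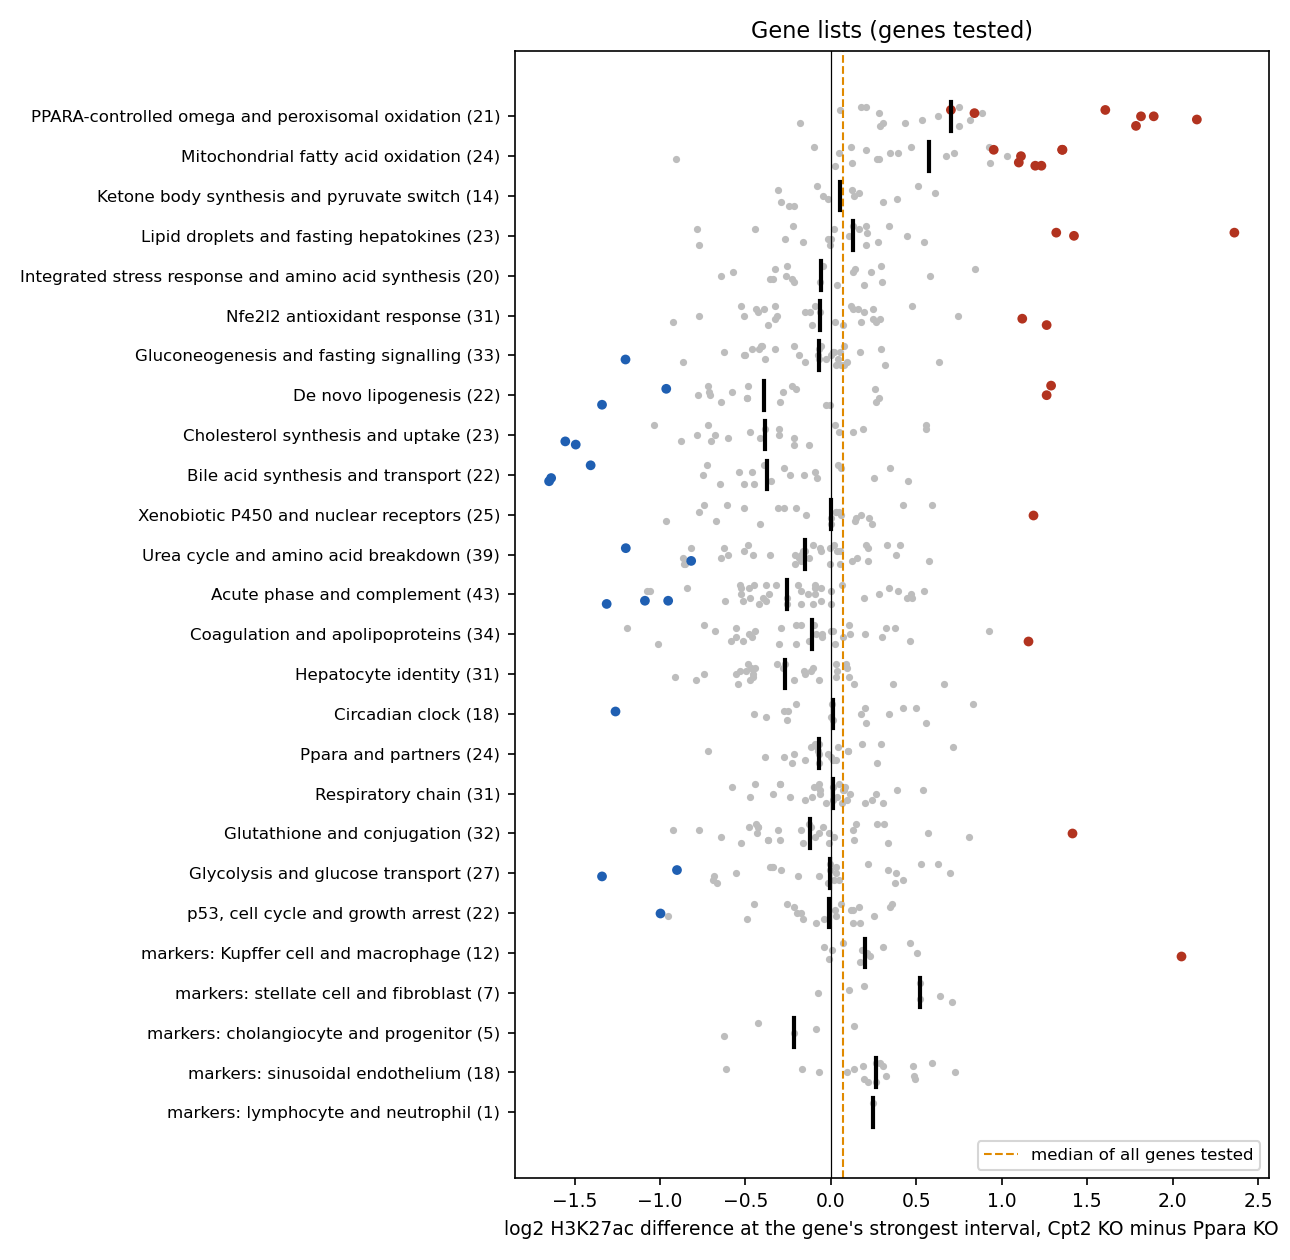
Log2 H3K27ac difference (Cpt2 KO minus Ppara KO) at the strongest interval of each gene, by gene list, with the number of genes tested in parentheses; coloured points passed the limma test and black bars are medians. The PPARA and mitochondrial oxidation lists have medians of 0.70 and 0.57 beside 0.07 for all genes tested (dashed line).

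In the other direction the largest difference was inside Spon1, which encodes a secreted matrix protein. Its interval (chr7:113960150-113963520) had folds of 3.43 and 4.13 in Cpt2 KO and of 20.7 and 22.8 in Ppara KO (log2 difference -2.77, SE 0.27, limma adjusted p = 9.4e-04). The groups were far apart, and DKO livers with 17.6 and 28.9 lay on the side of Ppara KO while WT livers with 6.17 and 5.8 lay near Cpt2 KO. Inside Sgip1, an endocytic adaptor, folds were 3.60 and 4.22 against 14.1 and 16.5 (-2.21, SE 0.28). At Cdh1, which encodes E-cadherin, an interval inside the gene had 4.61 and 3.94 against 13.8 and 16 (-2.04, SE 0.28). Itpr1, a calcium channel of the endoplasmic reticulum, had 4.57 and 5.40 against 16 and 16.3 (-1.94, SE 0.27). In Sgip1, Cdh1 and Itpr1, too, both DKO livers were above both WT livers.

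Gldc, the glycine decarboxylase of the glycine cleavage system, had an interval over its start (chr19:30166317-30175578) with folds of 9.20 and 8.11 in Cpt2 KO and of 27.2 and 27 in Ppara KO (-1.89, SE 0.23, limma adjusted p = 0.0021). Here WT livers had 20.5 and 30.1 and DKO livers 15.4 and 12.2, so that DKO lay nearer to Cpt2 KO. Rnf11, a ubiquitin ligase, showed the same order, with 7.08 and 8.54 in the Cpt2 KO livers against 29.1 and 23.2 in the Ppara KO livers, and with DKO at 9.79 and 10.9 and WT at 23.1 and 36 (-1.98, SE 0.25). Slc3a1, a subunit of the transporter of cystine and basic amino acids, had 7.83 and 5.78 against 20.1 and 20.2 (-1.82, SE 0.22), and Fto, a nucleic acid demethylase, 5.29 and 4.43 against 16.1 and 13.4 (-1.84, SE 0.25). Of the 12 lower genes, Spon1, Sgip1, Cdh1, Gldn, Rnf11, Itpr1, Gldc, Fto and Slc3a1 passed with each of the 4 livers left out. Smok3a passed in none of these fits (limma adjusted p 0.082 to 0.15). Zfp809 passed only without Cpt2 KO replicate 2, with 0.095 to 0.11 otherwise, and Fbxo42 had 0.053 without Ppara KO replicate 2.

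Cholesterol synthesis and uptake had 0 genes higher and 2 of 23 lower, Lss and Msmo1, with a median of -0.38. Groups did not overlap at 16 genes with Cpt2 KO lower and 4 with it higher, beside 18.6% and 32.1% of all genes. The median was -0.24 without Cpt2 KO replicate 1 and -0.23 without Ppara KO replicate 2. Over all 54 tested intervals of the list 3 were lower and 1 was higher. The higher one lay at Srebf2, the transcription factor of sterol synthesis, with folds of 18.4 and 13 against 6.8 and 5 (1.17, SE 0.29, limma adjusted p = 0.045). Lss, lanosterol synthase, had low folds throughout, 4.25 and 3.29 in Cpt2 KO against 7.17 and 12.1 in Ppara KO (-1.55, SE 0.32, limma adjusted p = 0.020). Msmo1, a sterol demethylase, had 6.23 and 6.33 against 12.5 and 18.0 (-1.49, SE 0.33, limma adjusted p = 0.030). Of the 131 called intervals of the list 18 (13.7%) were found in Ppara KO only, among them 4 at Fdft1 and 3 at Sc5d, and 3 in Cpt2 KO only. Over all called intervals near genes the shares were 4.8% and 8.29%. Both calls were kept without centring, where the list's median was -0.15, and neither passed with any of the 4 livers left out (0.057 to 0.19 for Lss, 0.11 to 0.22 for Msmo1).

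The lipogenesis list was mixed, with 2 of 22 genes higher, Gpam and Me1, and 2 lower, among them Insig1, at a median of -0.39. That median was -0.16 without centring, -0.27 without Cpt2 KO replicate 1 and -0.15 without Ppara KO replicate 2. Gpam, which starts triglyceride synthesis, had folds of 34.7 and 27.9 against 7.38 and 15.8 (1.29, SE 0.29, limma adjusted p = 0.033). Malic enzyme Me1, also a member of the Nfe2l2 list, had 35.8 and 31 against 8.4 and 16.5 (1.26, SE 0.30, limma adjusted p = 0.043). Insig1, which holds back sterol-regulated transcription, had 11.3 and 10.9 against 16.2 and 20.9 (-0.96, SE 0.21, limma adjusted p = 0.027). Fasn and Srebf1 did not pass, with differences of -0.30 and -0.23. Without centring neither lower gene passed, with 0.15 at Insig1. Leaving out single livers gave 0.038 to 0.28 at Gpam, 0.066 to 0.31 at Me1 and 0.098 to 0.19 at Insig1.

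Bile acid genes had 3 of 22 lower and 0 higher, at a median of -0.37, which was -0.13 without centring, -0.59 without Cpt2 KO replicate 1 and -0.12 without its replicate 2. The 3 were the organic anion transporters Slco1a4 and Slco1a1 and Nr0b2, the repressor induced by the bile acid receptor. Slco1a4 had folds of 14.4 and 6.76 in Cpt2 KO against 23.5 and 29.2 in Ppara KO (-1.65, SE 0.28, limma adjusted p = 0.0087), and the Cpt2 KO livers differed from each other by more than the Ppara KO livers did. Slco1a1 had 7.2 and 5.35 against 13.2 and 20.4 (-1.64, SE 0.39, limma adjusted p = 0.039), and Nr0b2 10.1 and 9.42 against 18.9 and 25.5 (-1.41, SE 0.34, limma adjusted p = 0.043). Cyp7a1, the rate-limiting enzyme of bile acid synthesis, did not pass (0.06, limma adjusted p = 0.95). With 1 of the 4 livers left out, Slco1a4 passed only without Cpt2 KO replicate 1 (0.063 to 0.11 otherwise), and Slco1a1 and Nr0b2 passed in none (0.11 to 0.26 and 0.16 to 0.26). Nr0b2 also lost its call without centring (0.067) and, narrowly, in 4 other alternatives (0.050 to 0.051). Slco1a1 and Slco1a4 are neighbouring copies of a gene family.

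In the acute phase and complement list 3 of 43 genes were lower, Cp, C6 and Orm1, and 0 higher (median -0.26, and -0.40 and -0.17 without Ppara KO replicates 1 and 2). Cp, ceruloplasmin, had folds of 10.2 and 7.80 against 17.6 and 20.1 (-1.31, SE 0.29, limma adjusted p = 0.030), and 27 of the list's 195 called intervals (13.8%) were found in Ppara KO only against 3 in Cpt2 KO only. None of the 3 passed without centring or with any of the 4 livers left out (0.065 to 0.32). At their strongest interval hepatocyte identity genes had 0 of 31 passing in either direction, a median of -0.27 and 22 of 167 intervals (13.2%) in Ppara KO only against 1 in Cpt2 KO only. Those 22 included 4 at Serpina1c and 3 at Hnf4a. Near all genes 4.8% of called intervals were found in Ppara KO only and 8.29% in Cpt2 KO only. Of the identity list's 85 tested intervals 3 were lower, at Serpina1c (-1.59, limma adjusted p = 0.012), Prox1 (-1.28, 0.043) and Hnf4a (-1.24, 0.039), and 0 higher. Serpina1c belongs to a cluster of near-identical genes. Without centring the 2 medians were -0.02 and -0.03, so the lower levels were relative to the shift of all intervals.

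The other lists had at most 2 genes each that passed at their strongest interval. In the urea cycle and amino acid list Agxt (-1.20) and Sdsl (-0.82) were lower of 39 genes, in the glycolysis list 2 of 27, among them Ldha (-0.90), and single lower genes were Got1 (-1.21) of 33 for gluconeogenesis, Nfil3 (-1.27) of 18 for the clock and Egr1 (-1.0) of 22 for p53 and growth arrest. None of these passed without centring. Single higher genes were Hmox1 (1.12), beside Me1, of 31 Nfe2l2 genes, Cyp2d9 (1.18) of 25 xenobiotic genes, Pltp (1.15) of 34 coagulation and apolipoprotein genes and Ugt3a2 (1.41) of 32 conjugation genes. Other intervals of these lists went further. In the urea cycle list 5 of 73 intervals were lower, with Ass1 (-1.07), Cbs (-1.26) and Hgd (-1.15) beside Agxt and Sdsl. In the coagulation list 3 of 72 were lower and 2 higher, and F11, a coagulation factor, was lower at 2 of them, with 5.88 and 4.86 against 12.2 and 19.4 at the first (-1.76, SE 0.31, limma adjusted p = 0.0094) and 9.44 and 8.76 against 16.9 and 20.8 at the second (-1.28, SE 0.27, limma adjusted p = 0.023). With 1 of the 4 livers left out each of Agxt, Sdsl, Ldha, Got1, Nfil3, Egr1, Hmox1, Cyp2d9, Pltp and Ugt3a2 lost its call in at least 3 of the 4 fits, with limma adjusted p up to 0.29. The integrated stress response (36 intervals tested) and the respiratory chain (35) had 0 calls in either direction. Ppara's partners and coregulators had 0 of 24 genes passing at their strongest interval and 2 of 88 intervals higher, one in Ppara, given with the targeted genes, and one at Ppargc1b, a coactivator of oxidative genes, with 34.7 and 41 against 11.2 and 11.6 (1.49, SE 0.23, limma adjusted p = 0.0054).

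Markers of other cell types were examined in the same way. Spi1 was the only marker gene of the 12 macrophage genes tested to pass. Summed over those 12, folds were 167 and 159 in Cpt2 KO and 102 and 106 in Ppara KO. Spi1 alone made up 31.2 and 28.8 of the former and 7.60 and 5 of the latter. Marco, Trem2, Ccr2 and Itgax had no called interval. Summed folds of the 18 endothelial genes were 370 and 328 against 255 and 242, and those of 7 stellate and fibroblast genes 119 and 96.9 against 68.3 and 69.5. None of these 25 genes passed. The median log2 difference was 0.20 over the macrophage genes and 0.27 over the endothelial ones, beside 0.07 for all genes. Groups did not overlap with Cpt2 KO higher at 9 of 12 macrophage, 13 of 18 endothelial and 4 of 7 stellate genes. With Cpt2 KO lower the counts were 0, 1 and 0, beside 32.1% higher and 18.6% lower of all genes. In Cpt2 KO only there were 4 of 51, 14 of 173 and 12 of 54 called intervals, and in Ppara KO only 1, 2 and 0. Col1a1, Col1a2, Acta2 and Timp1 had no called interval. Cholangiocyte sums were 64.4 and 67.1 against 64.2 and 66.5 over 5 genes, with Krt19, Krt7 and Epcam at none. This list holds Cdh1, which was lower in Cpt2 KO at 2 intervals (-2.04 and -1.63) and did not pass at its strongest one (-0.43). Groups did not overlap with Cpt2 KO lower at 3 of the 5 genes, beside 18.6% of all genes. In Ppara KO only 4 of 23 called intervals were found, against 0 in Cpt2 KO only. Over all called intervals near genes these shares were 4.8% and 8.29%. The stellate list's median of 0.52 was 0.24 without Ppara KO replicate 1 and 0.14 without replicate 2, where Sparc turned to -0.02. Sums are not centred, and the part of these cell types in the differences was not tested.

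On the whole the changed intervals were wide and lay away from starts. Of the higher intervals 20.7% overlapped a promoter window, of the lower ones 12.5%, and of all tested 30.3%. Their median widths were 2497.5 and 2672 bases against 1725. A further 47.2% and 53.2% lay inside gene bodies without covering a start, beside 43.3% of all.

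In addition 4591 intervals were called in both Cpt2 KO livers and in neither Ppara KO liver, 9.28% of the 49496 called, and 2427 (4.9%) showed the reverse. A comparison of 2 against 2 livers cannot give an exact two-sided p below 0.333, so no single interval was tested. These were mostly small peaks, with median widths of 588 and 705 bases and median folds of 6.63 and 5.96, and only 7.56% and 2.14% overlapped a promoter window. With a fold of at least 5 required in both livers, 3484 were left in Cpt2 KO only and 1546 in Ppara KO only. Without Cpt2 KO replicate 1 or 2 the intervals of Cpt2 KO only numbered 7537 and 7959, and without Ppara KO replicate 1 or 2 those of Ppara KO only numbered 4784 and 6464.

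Among the strongest intervals of this kind in Cpt2 KO, one 8045.5 bases from Cyp4a31 had 45.4 and 40.4, with 7.83 and 10.3 in WT and a peak of 6 in a single DKO liver. Inside Bfar, an apoptosis regulator of the endoplasmic reticulum, folds were 41.9 and 35.6, with 7.29 and 10.9 in WT and no peak in DKO. Mogat1, a monoacylglycerol acyltransferase of triglyceride synthesis, was marked at its start with 32.8 and 32 (chr1:78510505-78511377), with 9.25 and 13.4 in WT and no peak in DKO. Near Vnn1, a pantetheinase, folds were 34.0 and 30.5 with 14.4 and 12.2 in WT and no peak in DKO, and 2 more intervals of Vnn1 were called in Cpt2 KO only. Prox2, Chn2, Pik3c2g and Qpct complete the 8 strongest. All 8 were called in both WT livers at lower fold than in Cpt2 KO, and none in both DKO livers.

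Those called in Ppara KO only reached lower folds. These folds are not centred, and the highest fold of a whole list was also lower in Ppara KO, 46 and 51.5 against 69.4 and 75 in Cpt2 KO. Inside Acmsd, an enzyme that diverts tryptophan away from NAD synthesis, the Ppara KO livers had folds of 22.7 and 24.6 and the DKO livers of 32 and 37.4, with no peak in WT. Cib3, a calcium-binding protein, had 19.8 and 19.8 at an interval over its start, with 16.7 and 12 in DKO and 3.71 in a single WT liver. Inside Grin2b, a subunit of the NMDA receptor, folds were 15.5 and 14.5, with 23.3 and 29.7 in DKO and no peak in WT. Gldn, Parp16, Gstp1, Cmah and Erp27 complete the 8. All 8 were called in both DKO livers, and 3 of them, at Gstp1, Cmah and Erp27, in both WT livers. The WT and DKO livers share no library with the rule that chose these intervals. By animal number, however, DKO shares its series with Ppara KO, and WT shares its series with Cpt2 KO.

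Over all 4591 intervals of Cpt2 KO only, the pattern of the strongest was not the common one. Both WT livers had a peak at 781 (17%) and neither at 3091 (67.3%), whereas both DKO livers had one at 1691 (36.8%) and neither at 2009 (43.8%). A peak in both DKO livers and in neither WT liver was found at 1284 (28.0%). The reverse was found at 477 (10.4%), and no peak in either genotype at 1202 (26.2%). DKO also shares with Cpt2 KO the wider smallest peaks given above. Of the 2427 intervals of Ppara KO only, both WT livers had a peak at 981 (40.4%) and both DKO livers at 803 (33.1%). There the pattern of WT without DKO held 543 (22.4%), that of DKO without WT 416 (17.1%), and neither genotype had a peak at 290 (11.9%).

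**Figure D4:**
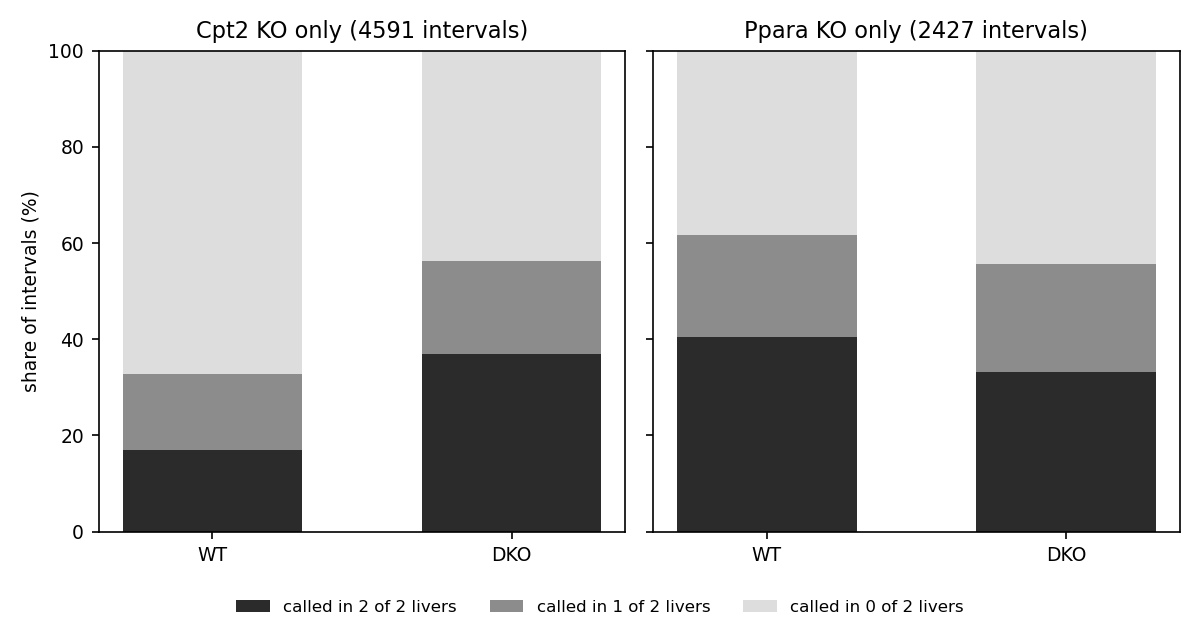
Share of intervals (%) called in 2, 1 or 0 of the 2 WT and the 2 DKO livers, for intervals called in Cpt2 KO only (left, 4591) and in Ppara KO only (right, 2427). At the former both DKO livers had a peak more often (36.8%) than both WT livers (17%), and at the latter the shares were 33.1% and 40.4%. DKO livers had more intervals called in general than WT livers.

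The WT and DKO levels were also set beside the tested intervals. At the higher intervals where both DKO livers had a peak, the DKO mean was nearer to Ppara KO at 192 of 220 (87.3%), with median centred log2 folds of -0.39 in DKO and -0.34 in Ppara KO. The WT mean was nearer to Cpt2 KO at 119 of 236 (50.4%), with a median of 0.35 between 1.02 in Cpt2 KO and -0.36 in Ppara KO. At the lower intervals the DKO mean was nearer to Ppara KO at 190 of 288 (66.0%) and the WT mean at 156 of 261 (59.8%). These are descriptions, and differences from WT or DKO were not tested here. The intervals were chosen for their gap between Cpt2 KO and Ppara KO, and the same shares over all tested intervals were not computed. Both genotypes also entered the estimate of the spread behind these calls. The likeness of DKO to Ppara KO cannot be told apart from their shared series of animal numbers.

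The targeted genes themselves differed in few places. Over the start of Cpt2 the folds were 18.7 and 23.2 in Cpt2 KO and 8.75 and 9.80 in Ppara KO (0.93, SE 0.25, limma adjusted p = 0.065). Groups did not overlap there, and this Cpt2 interval passed without centring (0.030). In Ppara an interval inside the gene (chr15:85785705-85791413) was higher in Cpt2 KO, with 20.1 and 21.0 against 7.73 and 8.17 (1.13, SE 0.24, limma adjusted p = 0.026). Without single livers its limma adjusted p was 0.11 to 0.20. The interval over the Ppara start had 25.3 and 22.9 against 20.2 and 28.4 and did not pass (-0.23, limma adjusted p = 0.57). Inside the gene 3 intervals were called in Cpt2 KO only, with folds from 5 to 6.64. Each had a peak in a single WT liver and none in DKO. A further interval was called in Ppara KO only, with 6.08 and 6.15, and had 7.33 and 9.90 in DKO and no peak in WT. An interval 1538 bases from Cpt2 had 4.78 and 5.52 in Ppara KO and 7.77 and 9.87 in WT. It had no peak in Cpt2 KO or DKO. Which exons were deleted is not given in the sources used here, so these peaks do not check the labels.

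H3K4me1, a mark of enhancers whether active or not, had been measured in livers that carry the same animal numbers, so it gives other libraries and not other animals. At the 20236 H3K27ac intervals with H3K4me1 peaks in all 4 livers, 0 differed in H3K4me1 by limma, with 996 at an unadjusted p under 0.05 and a lowest limma adjusted p of 0.44. Its direction, however, went with H3K27ac. Of the 170 higher H3K27ac intervals with H3K4me1 values, 152 (89.4%) had more H3K4me1 in Cpt2 KO, with a median log2 difference of 0.45. Of the 240 lower ones 48 (20.0%) did, with a median of -0.24, beside 49.3% and a median of 0.00 over all tested intervals with both marks. At Smim4 the H3K4me1 folds were 13.9 and 11 in Cpt2 KO and 4.44 and 5 in Ppara KO, and near Cyp4a32 19.2 and 13.4 against 6 and 7.41. At Mfsd2a and Slc27a2, in contrast, the H3K4me1 groups overlapped or lay the other way, with 5.08 and 4.59 against 7 and 5.50 at Mfsd2a.

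**Figure D5:**
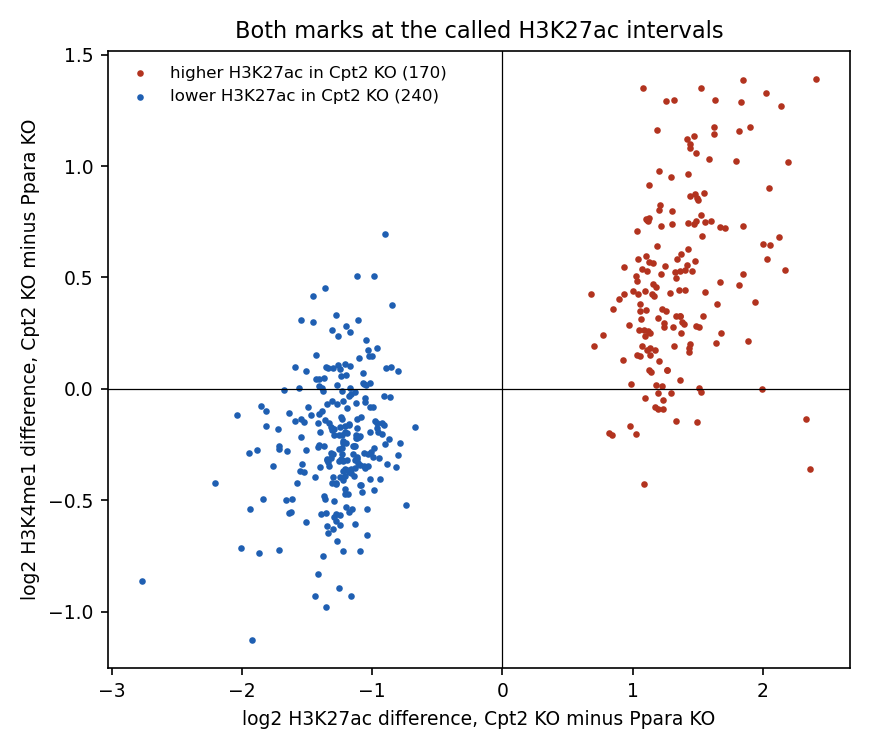
Log2 difference in H3K4me1 against that in H3K27ac (both Cpt2 KO minus Ppara KO, centred) at the H3K27ac intervals that passed the test and had H3K4me1 peaks in all 4 livers. Of the 170 higher intervals (red) 152 lie above 0 in H3K4me1, and of the 240 lower ones (blue) 48 do.

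The intervals called in a single genotype differed in how often H3K4me1 was there at all. Of the 4591 found in Cpt2 KO only, 1912 had no H3K4me1 peak in any of the 4 livers, and 556 had H3K4me1 called in both Cpt2 KO livers and neither Ppara KO liver, against 7 for the reverse. Of the 2427 found in Ppara KO only, 238 had no H3K4me1 peak. H3K4me1 was called in Ppara KO only at 150 of them and in Cpt2 KO only at 7. The 22784 tested intervals were wider, and 3935 of them had no H3K4me1 peak. There H3K4me1 was called in Cpt2 KO only at 173 and in Ppara KO only at 167. An H3K4me1 peak in any of the 4 livers was found at 58.4%, 90.2% and 82.7% of these 3 sets. The differences between the sets were not tested. Near Mogat1 the H3K4me1 folds were 15.9 and 7.73 in Cpt2 KO with no peak in Ppara KO, whereas inside Acmsd H3K4me1 was called in all 4 livers, with 6.03 and 5.65 in Cpt2 KO and 9.23 and 12.7 in Ppara KO.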

How the data were processed

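H3K27ac and H3K4me1 peaks of 16 livers were used (4 genotypes, 2 livers each and mark). Per the submitters' processing notes, BWA, MACS2 2.1.0 and mm10 were used; the role and settings of each are not given in the sources used here. The authors deposited a peak list per library, with each peak's fold enrichment as a ratio over background and its −log10 q, and a consensus table whose first block gave the 65776 intervals.

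Each library's value at an interval was the highest fold of its peaks overlapping by at least 1 base, as log2, centred on the library's median over the intervals called in all libraries compared. Differences were tested with limma 3.58.1 (R 4.3.3) with all 8 libraries of the mark sharing 1 estimate of the spread, Benjamini-Hochberg adjusted over all intervals tested, and the procedure was tested on simulated data. In the names of the peaks of Ppara KO replicate 2 (H3K27ac) another build is written, and they were used as mm10, since their overlap with replicate 1 was 0.723. Depth in reads is unknown, so no counting interval is given. An interval belonged to the nearest protein-coding gene body (RefSeq, GRCm38.p6) within 10000 bases of its middle, by position alone, and exons were not looked at.

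The members and lists were chosen with earlier results of these data known. The named genes were the 12 of largest difference in each direction without overlap of groups, up to 4 per list and direction among those that passed, the 8 strongest intervals called in a single genotype, and Cpt2 and Ppara. Other genes of the lists are named as examples chosen after their values were seen. Alternatives were no centring, quantile normalization, the 4 libraries alone, intervals called in all 8, filled values, mean fold, a minimum −log10 q of 10, the replicate block, smallest peak width as a covariate and each library left out. The other marks and tables of the series were not used here, and a few genes of the lists are counted but not reported by name.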

Additional observations from a re-analysis of the deposited data

How the results depend on the processing

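Beside 246 higher and 297 lower intervals, the counts were 518 and 100 without centring, and 4830 and 3406 when uncalled libraries were given the lowest fold of their list, which adds intervals called in a single genotype. With the smallest peak width as a covariate they were 0 and 0 by limma, with 1004 and 1217 at an unadjusted p under 0.05; the cause was not tested. Leaving out each library in turn gave 27 to 276 higher and 15 to 331 lower intervals. Quantile normalization, the 4 libraries alone, intervals called in all 8, mean fold and the stricter q kept both counts within 1.5 times. With the mean fold 18 of 108 named results lost their call, among them Fabp1, Abcd3, Acaa1a, Eci1, Me1 and Pltp, and without centring 25 did. Intervals of Cpt2 KO only ranged from 6112 to 7959 and those of Ppara KO only from 3349 to 6464 with single livers left out, since fewer livers then have to match. At a fold of at least 5 they numbered 3484 and 1546. H3K4me1 had 0 calls in every alternative run.

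Of the single genes, 2 turned with the width covariate, Ndufv1 to 0.59 and Cdh1, at its strongest interval, to 0.35. That Cdh1 interval had not passed in the main fit (-0.43, limma adjusted p = 0.43). The 2 Cdh1 intervals that had passed kept their direction. With single libraries left out Ndufv1 ranged from -1.24 to 0.081 and Sparc from -0.020 to 1.30.

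With the replicate number as a block (replicate block) 266 intervals were higher and 340 lower. Deviations of libraries with the same number had r = -0.06 for H3K27ac and -0.49 for H3K4me1 across intervals, which are not independent, and no source says that a number pairs livers, so these fits share only a number. The block changed the call of 1 of 108 named results. With 2 livers a genotype, and no depth in reads, small differences were not detectable here.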
